A study of Mus musculus with 4 samples.

Results

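The genes examined here encode the macroautophagy machinery and its control by mTOR. They are 46 mouse genes, given as a list of symbols that was drawn up with earlier results of these data known, and sorted into 6 arms: initiation (5 genes), nucleation and membrane growth (11), conjugation (15), cargo receptors (4), fusion (7) and mTOR control (4). All 46 had at least 1 of 60 probes on the arrays, out of 20895 genes with a symbol and a probe. On all 4 arrays, 44 of the 46 passed the test for signal well above background that the scanner software applies, against 13019 of the 20895. The other two, Atg4a and Optn, are described apart.

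RNA came from NIH-3T3 cells, an established line of mouse fibroblasts that the labels call wild type, grown to confluency in medium with serum. One array held RNA of cells without treatment, and 1 array each held RNA of cells collected 24 h after addition of 20 µM AR7, CA39 or CA77. AR7 is a small molecule directed at the retinoic acid receptor alpha that raises chaperone-mediated autophagy (CMA), and CA39 and CA77 are later derivatives of it. Since the compounds were added in DMSO and the untreated culture is labelled as having received nothing, an effect of DMSO and one of the compounds cannot be told apart where all treated arrays differ from the untreated one.

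Macroautophagy, unlike CMA, encloses cytoplasm in a double membrane, the autophagosome, which later fuses with the lysosome. The ULK1 kinase complex starts the process, a lipid kinase complex around Beclin 1 marks the membrane, and a pair of ubiquitin-like conjugation systems attaches LC3 and GABARAP proteins to it. Cargo receptors tie their load to these proteins, and mTORC1, the nutrient-sensing kinase complex, holds ULK1 and the lysosomal transcription factor TFEB in check when amino acids are plentiful. The comparison asks whether compounds made to raise CMA also moved the messages of this other route.

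Each value below is a background-corrected, quantile-normalized intensity on the log2 scale, and each difference is the treated array minus the untreated array for the brightest probe of a gene. With 1 array per group no test was possible and no p-value is given. The only error estimate comes from probes printed 10 times on each array. It gives a tolerance of 0.16 (log2), the typical SD of a difference between single spots of such a probe. Being an SD and not a limit, it can be passed through measurement error alone. The tolerance covers measurement within an array and not differences between cultures. All 3 differences of a gene also share the untreated array, so that an error of that array enters all of them.

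Few members lay far from untreated, and with AR7 and CA77 few of all genes did so either. Among genes well above background on at least 1 of the 2 arrays compared, 0 of 45 members were past 2-fold with AR7, against 2.63% of all such genes, and with CA77 0 of 45, against 2.69%. With CA39 it was 1 of 45, Optn, against 5.96%. Past 1.5-fold, among the 44 measured on all arrays, there was 1 with AR7 (Stx17, against 2.9% of all genes), 1 with CA39 (Uvrag, against 10.8%) and 0 with CA77 (against 3.1%).

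Past the tolerance, more members lay above than below untreated with CA39 and CA77. With CA39, 13 members lay above untreated by more than the tolerance and 5 below, where 26.3% of all genes lay above and 30.3% below. With CA77 the members divided into 7 above and 3 below, against 18.9% and 21.6% of all genes. With AR7 they divided into 8 above and 7 below, against 16.3% and 18.5%. The division depended on the scaling for CA39 and AR7, and less so for CA77. With the 75th percentile scaling it was 11 above and 8 below for CA39, where 21.0% of all genes lay above and 40.3% below, and 6 and 9 for AR7, against 13.1% and 23.7%. With the deposited series table it was 9 and 7 for CA39, against 20.9% and 40.4%, and 4 and 9 for AR7, against 13.3% and 23.4%. For AR7, CA39 and CA77 in turn, the median over the 44 members was 0.003, 0.07 and 0.07, where the median over all genes was -0.01, -0.02 and -0.01. The CA39 median of members was 0.01 with the 75th percentile scaling of the processed signal, where all genes had a median of -0.09, and 0.02 with the deposited series table, where it was also -0.09. The counts were others with regard to position on the array: after the median difference of neighbouring spots was taken from each gene, an adjustment chosen after the values were seen, CA39 had 18 members above and 4 below, against 30.5% and 27.3% of all genes so adjusted, CA77 had 15 above and 2 below, against 22.6% and 19.8%, and AR7 had 10 above and 4 below, against 18.1% and 16.4%.

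**Figure D1:**
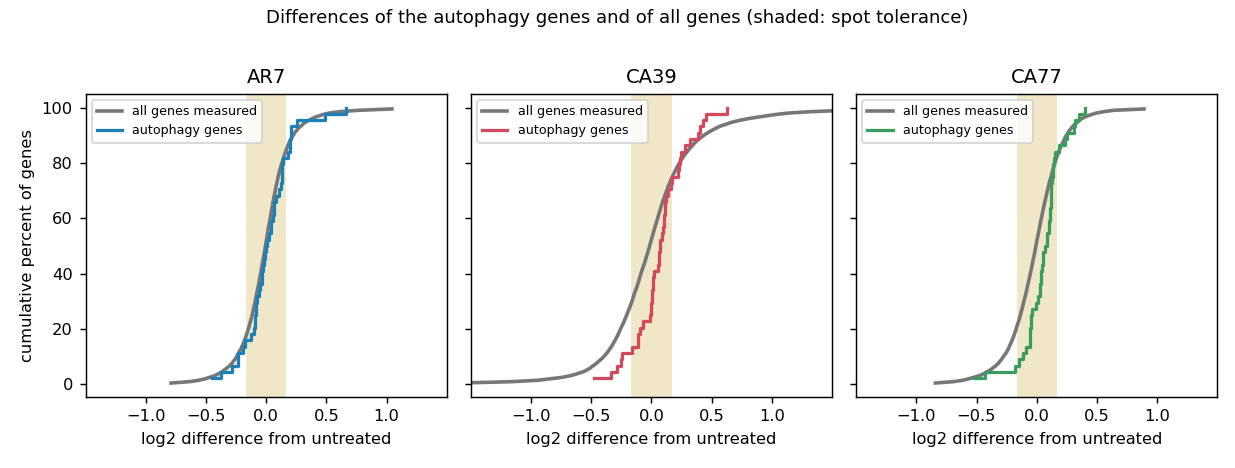
Cumulative percent of genes (vertical axis) against the log2 difference from untreated (horizontal axis) for the 44 members (coloured steps) and the 13019 genes measured on all arrays (grey line), 1 panel per compound, with the tolerance of 0.16 shaded. With CA39 the members lie to the right of all genes in the lower part of the curve, where 11.4% of the members and 30.3% of all genes are below the tolerance.

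By arm, the CA39 median was 0.16 for initiation, 0.12 for nucleation and membrane growth, 0.12 for fusion and 0.08 for mTOR control, and lay within 0.01 of 0 for conjugation and for the 3 measured cargo receptors. No member of initiation, nucleation or fusion lay below untreated by more than the tolerance with CA39, while 3 of 5, 5 of 11 and 2 of 7 lay above, where 30.3% of all genes lay below and 26.3% above. With AR7 the arm medians ran from -0.04 for conjugation to 0.12 for the cargo receptors, and with CA77 from 0.03 for nucleation to 0.35 for the cargo receptors. Scaling the processed signal to its 75th percentile, which also changes the background correction, put the median of all genes at -0.04 with AR7 and -0.09 with CA39. Under it the CA39 median of initiation was 0.04, that of nucleation 0.06, that of conjugation -0.08 and that of mTOR control -0.0062. With AR7 the medians of nucleation (-0.0039) and mTOR control (-0.03) lay above that of all genes and that of initiation (-0.05) below it. In the grid rows over 160, the CA77 medians of nucleation and fusion turned to -0.0098 and -0.0053, both above the median of all genes there, -0.02.

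**Figure D2:**
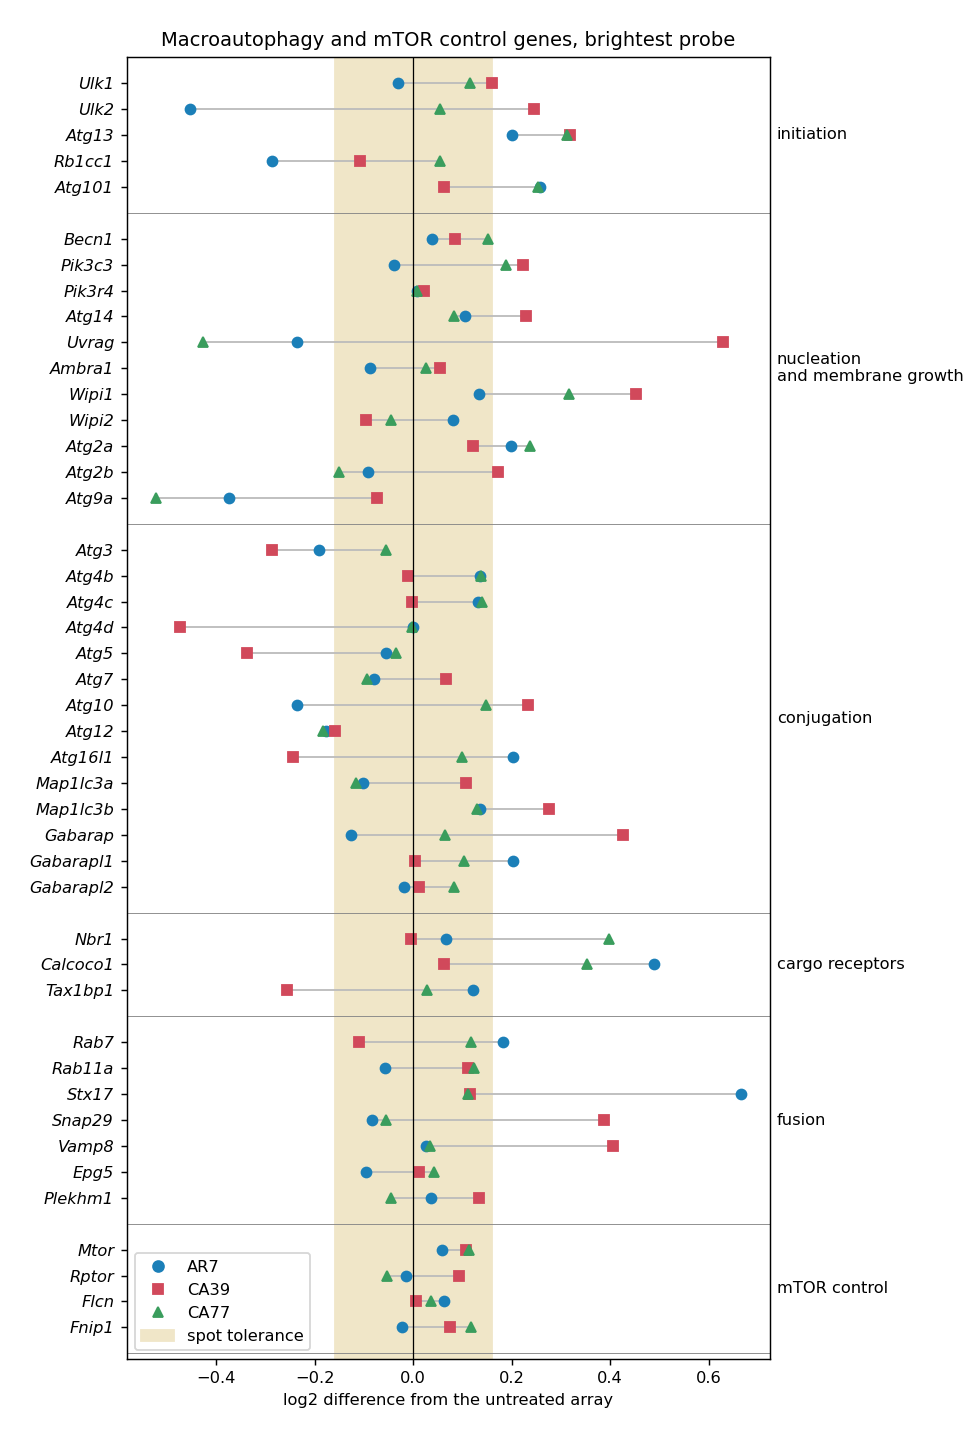
Log2 difference from the untreated array (horizontal axis) of the brightest probe of each of the 44 members, grouped by arm, for AR7 (circles), CA39 (squares) and CA77 (triangles), with the tolerance of 0.16 shaded. Most symbols sit in the shaded band, all 12 of the mTOR control arm among them, and the widest gap between compounds among these 44 is that of Uvrag.

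Among the 44 members measured on all arrays, the one most apart between compounds was Uvrag of the nucleation arm. Uvrag, a partner of Beclin 1 in the lipid kinase complex, was at 14.06 untreated, 13.83 after AR7, 14.69 after CA39 and 13.64 after CA77. It was therefore highest with CA39 (0.63 above untreated) and lowest with CA77 (0.43 below), with AR7 between untreated and CA77. Its single spot lay among neighbours whose median differences were 0.01, -0.06 and -0.10 with AR7, CA39 and CA77. The difference with CA39 was 0.52 to 0.69 over the alternatives of the processing, and its call past 1.5-fold was lost with the 75th percentile scaling (0.54) and with the deposited series table (0.52). Wipi1, which binds the lipid made by this complex, was at 11.16 untreated, 11.29 after AR7, 11.61 after CA39 and 11.47 after CA77, and its second probe differed by 0.13, 0.14 and 0.25, so that for this gene the size of the CA39 difference depends on the probe.

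Other nucleation genes differed less. Atg9a, the membrane protein that seeds the growing autophagosome, was lower by 0.37 with AR7 and by 0.52 with CA77, and by 0.07 with CA39, within the tolerance. The scaffold Atg14 was higher by 0.23 with CA39, and the kinase subunit Pik3c3 by 0.22 with CA39 and 0.19 with CA77, with 0.22 and 0.10 from its second probe. Becn1 itself stayed within the tolerance on all arrays (0.04, 0.09 and 0.15 with AR7, CA39 and CA77), as did Pik3r4 and Ambra1. Atg2a, a lipid transfer protein, was higher by 0.20 with AR7 and 0.24 with CA77. The related Atg2b differed by -0.09, 0.17 and -0.15. Wipi2 differed by 0.08, -0.10 and -0.05, while its second probe gave 0.44 with AR7 and 0.19 with CA77.

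In the initiation arm, Atg13, the regulatory subunit of the ULK1 complex, was the one member of the 44 above untreated by more than the tolerance on all treated arrays. Its level was 13.47 untreated, 13.67 after AR7, 13.79 after CA39 and 13.78 after CA77. These are differences of 0.20, 0.32 and 0.31 from a single probe. The value with AR7 was 0.11 to 0.24 over the alternatives and lay within the tolerance in 3 of them, the 75th percentile scaling, the quantile-normalized processed signal and the deposited series table. Atg101, its binding partner, differed by 0.26, 0.06 and 0.25 in the same order of compounds. The kinase Ulk1 differed by -0.03, 0.16 and 0.12, the value with CA39 being at the edge of the tolerance and within it in 4 of the alternatives, at 0.04 with the 75th percentile scaling and 0.06 with the deposited series table. Without Ulk1, 2 of the 5 initiation genes lay above untreated with CA39.

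The second kinase, Ulk2, was at 10.13 untreated, 9.68 after AR7, 10.38 after CA39 and 10.19 after CA77 by its brighter probe. The other probe gave 8.88, 8.84, 9.36 and 9.20, so both were lowest with AR7 and highest with CA39, but the first was lower with AR7 by 0.45 and the second by 0.04. The scaffold Rb1cc1 was lower by 0.29 with AR7, and its second probe by 0.32. The probes of Rb1cc1 disagreed with CA39, at -0.11 and 0.27.

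In the conjugation arm, 4 of the 14 measured genes lay below untreated with CA39 by more than the tolerance and 3 above, against 30.3% and 26.3% of all genes. Atg4d, a protease that processes LC3-type proteins, was at 12.80 untreated, 12.80 after AR7, 12.33 after CA39 and 12.80 after CA77, lower with CA39 alone by 0.47. Atg5, which is joined to ATG12, was lower by 0.34 with CA39 and differed by -0.05 with AR7 and -0.04 with CA77. Atg3, the conjugating enzyme of LC3, was lower by 0.29 with CA39 and 0.19 with AR7, and its partner in attachment Atg16l1, at 11.66 untreated, 11.86 after AR7, 11.41 after CA39 and 11.76 after CA77, was lower by 0.24 with CA39 but higher by 0.20 with AR7.

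Atg12 was slightly lower on all treated arrays. Its brighter probe differed by -0.18, -0.16 and -0.18 with AR7, CA39 and CA77, at the edge of the tolerance, and its second probe by -0.33, -0.72 and -0.35. The activating enzyme Atg7 stayed within the tolerance on all arrays, as did the proteases Atg4b and Atg4c by their brighter probes, though the second probe of Atg4c was higher by 0.19 with AR7 and 0.17 with CA77. Both probes of Atg10, which hands ATG12 to ATG5, gave a lower value with AR7 (-0.24 and -0.26) and a higher one with CA39 (0.23 and 0.23), from a level of 9.56 untreated, 9.32 after AR7, 9.79 after CA39 and 9.71 after CA77.

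Among the LC3-type proteins themselves, those past the tolerance were higher than untreated. Gabarap was at 15.42 untreated, 15.29 after AR7, 15.84 after CA39 and 15.48 after CA77, and its second probe at 14.26, 14.24, 14.79 and 14.39. Both probes were highest with CA39, by 0.43 and 0.53, and within the tolerance with AR7 and CA77. Gabarapl1 was higher by 0.20 with AR7 and by 0.003 with CA39, and Gabarapl2 and Map1lc3a stayed within the tolerance on all arrays.

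Map1lc3b, the LC3 form most used to follow autophagosomes, was printed 10 times on each array, so its spread can be given. Its mean was 14.53 ± 0.08 (SD over 10 spots) untreated, 14.66 ± 0.07 (10 spots) after AR7, 14.80 ± 0.03 (7 spots, 3 being marked as outliers) after CA39 and 14.66 ± 0.04 (10 spots) after CA77. The lowest CA39 spot (14.76) lay above the highest untreated spot (14.64), while the ranges of the AR7 and CA77 spots overlapped that of untreated. Set against the untreated spot at the same position of the array, however, all 10 AR7 spots were higher, by 0.14 ± 0.03 (mean ± SD), as were all 10 CA77 spots, by 0.13 ± 0.06, and all 7 CA39 spots, by 0.25 ± 0.06. The mean over all spots gave 0.28 for CA39, since 3 positions are missing there. Pik3r4, the other member printed 10 times, gave overlapping spots on all arrays, with means of 12.17 ± 0.15, 12.18 ± 0.16, 12.19 ± 0.12 and 12.18 ± 0.11 on untreated, AR7, CA39 and CA77. Position by position, 5 of its 10 AR7 spots, 6 of its CA39 spots and 6 of its CA77 spots lay above untreated. These spots are repeats of 1 hybridisation and not of a culture.

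**Figure D3:**
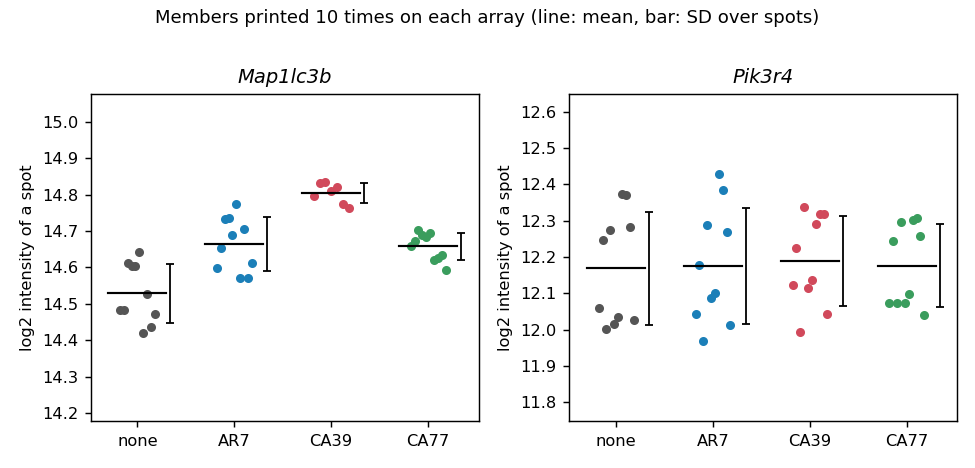
Log2 intensity of single spots (vertical axis) of Map1lc3b (left) and Pik3r4 (right) on each array (horizontal axis, none being untreated), with the mean as a line and the SD over spots as a bar beside it. The 7 Map1lc3b spots of CA39 lie above all 10 untreated spots, and the Pik3r4 spots overlap on all arrays.

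Cargo receptors had the largest member difference. Optn encodes optineurin, a receptor for ubiquitin-marked bacteria and mitochondria. Its single probe was dim: 6.04 untreated, 6.46 after AR7, 7.9985 after CA39 and 6.24 after CA77, and it was well above background on untreated and CA39 alone. With CA39 it lay 1.96 above untreated, or 3.89-fold, and at least 2.91-fold above AR7 and 3.39-fold above CA77, each bound set by the higher of the dim value and the lowest signal among probes well above background on that array. A floor set at the 1st percentile of such signals gave bounds of 2.27-fold and 3.34-fold. The CA39 difference ranged from 1.40 to 3.09 over the alternatives, the direction being the same in each. The spots around it had a median difference of 0.07 with CA39.

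Calcoco1, a receptor in the turnover of the endoplasmic reticulum, was at 8.76 untreated, 9.25 after AR7, 8.83 after CA39 and 9.12 after CA77, higher with AR7 by 0.49 and with CA77 by 0.35. Nbr1, a receptor for protein aggregates, was higher by 0.40 with CA77 and within the tolerance with AR7 and CA39. Tax1bp1 was lower by 0.26 with CA39. None of these 3 receptors lay past the tolerance in the same direction with all compounds, and Optn, whose AR7 and CA77 signals were not well above background, is not counted here.

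In the fusion arm, Vamp8, a SNARE that pairs with syntaxin 17, was at 13.63 untreated, 13.66 after AR7, 14.04 after CA39 and 13.67 after CA77. It stood apart on CA39 alone, by 0.41. Snap29, the third partner in that complex, was higher by 0.39 with CA39 in its brighter probe and lower by 0.07 in the other, so its probes disagree. Stx17, syntaxin 17 itself, disagreed likewise: its brightest probe was at 9.28 untreated, 9.94 after AR7, 9.39 after CA39 and 9.39 after CA77, whereas its other two gave -0.18 and -0.01 with AR7. The call of Stx17 past 1.5-fold with AR7 therefore rests on 1 of 3 probes, with a mean over them of 0.16. The tethers Epg5 and Plekhm1 and the GTPase Rab11a stayed within the tolerance on all arrays. Rab7, the GTPase of late endosomes, was higher by 0.18 with AR7 and within the tolerance with CA39 and CA77.

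The mTOR control arm showed no difference past the tolerance. Mtor was at 11.27 untreated, 11.33 after AR7, 11.38 after CA39 and 11.38 after CA77. Rptor, the subunit that brings substrates to mTORC1, differed by -0.01, 0.09 and -0.05. The folliculin gene Flcn differed by 0.06, 0.01 and 0.04, with 0.13, 0.14 and 0.085 from a second probe, and its partner Fnip1, with which it forms a complex that relays amino acid supply to TFEB, by -0.02, 0.07 and 0.12.

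Atg4a had no array with signal well above background, and no difference is given for it. For the 13 members with several probes, 14 pairs of probes could be compared. Their differences lay within 0.16 of each other in 9 of 14 pairs for AR7, in 9 for CA39 and in 8 for CA77. The widest gaps were 0.85 (Stx17 with AR7), 0.57 (Atg12 with CA39) and 0.27 (Ulk2 with CA77).

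**Figure D4:**
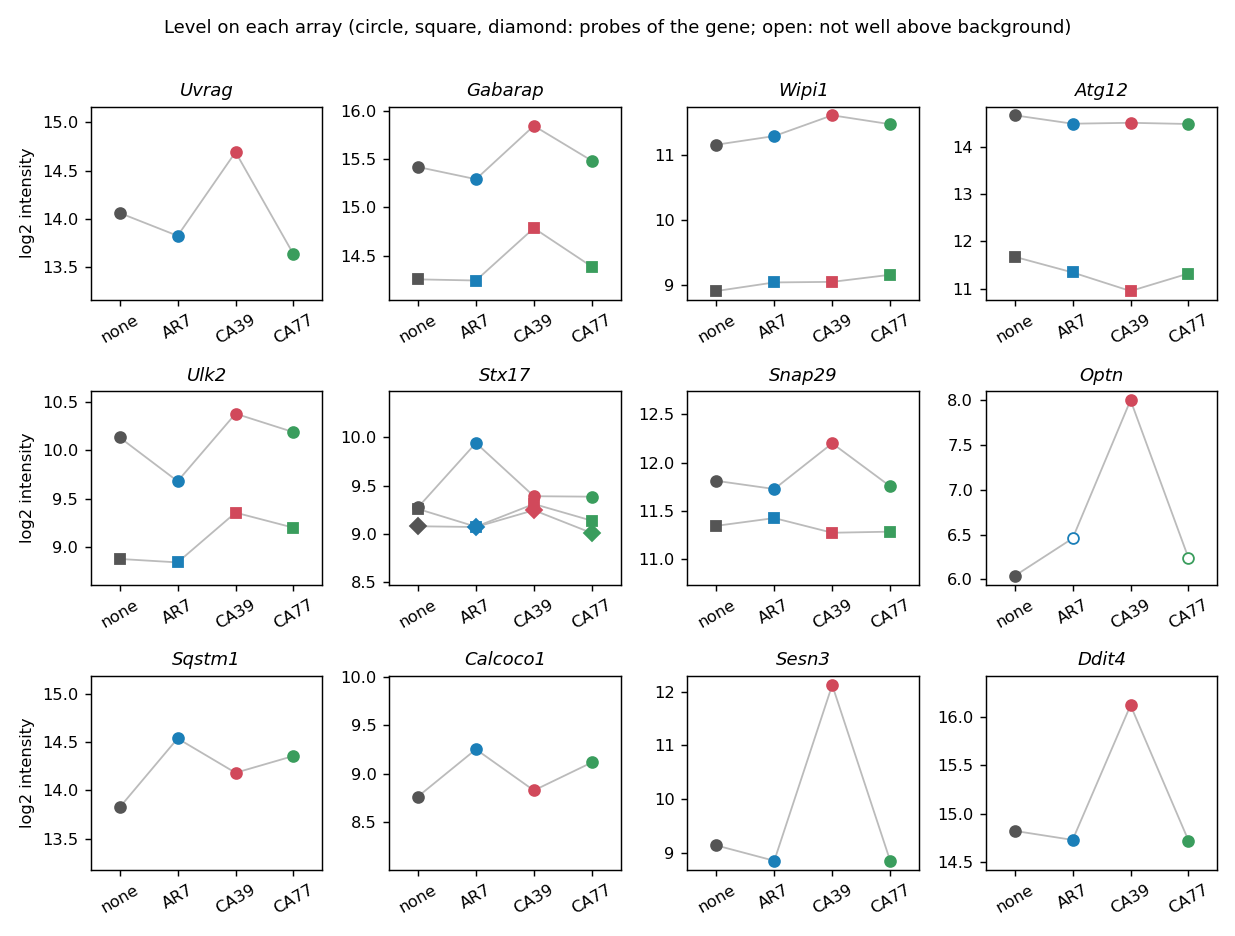
Log2 intensity (vertical axis) on each array (horizontal axis, none being untreated) of 9 members and of Sqstm1, Sesn3 and Ddit4, with a circle, square or diamond for each probe of a gene and open symbols where the probe was not well above background. Both Gabarap probes peak on CA39, the Stx17, Snap29 and Atg12 probes part from each other, and Optn, Sesn3 and Ddit4 stand out on CA39.

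Other genes of the pathway came from a list of autophagy genes and a list of mTOR control genes outside the 46. Of 43 symbols listed as further autophagy genes, among which Wipi3 matched no probe, 40 were measured on all arrays. With AR7, 13 of these lay above untreated by more than the tolerance and 1 below, against 16.3% and 18.5% of all genes. With CA39 it was 19 and 3, against 26.3% and 30.3%, and with CA77 15 and 1, against 18.9% and 21.6%. The median was 0.06, 0.15 and 0.09, against -0.01, -0.02 and -0.01 over all genes, and the CA39 median was 0.03 with the 75th percentile scaling, where all genes had a median of -0.09.

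Sqstm1, which encodes the receptor p62 and is also a known target of NRF2, was at 13.82 untreated, 14.54 after AR7, 14.18 after CA39 and 14.36 after CA77. It was thus higher by 0.71, 0.36 and 0.53, past 1.5-fold with AR7 alone, a call lost with the 75th percentile scaling (0.56). Tecpr1, a tether for autophagosomes and lysosomes, was at 12.59 untreated, 12.83 after AR7, 13.23 after CA39 and 12.80 after CA77, higher by 0.65 with CA39, 0.24 with AR7 and 0.21 with CA77. Bcl2, which can hold Beclin 1 inactive, was at 11.56 untreated, 11.56 after AR7, 10.92 after CA39 and 11.40 after CA77, lower by 0.64 with CA39. These genes are each read by 1 probe. The brighter probe of Calcoco2, a receptor for bacteria and mitochondria, was at 7.17 untreated, 10.58 after AR7, 7.19 after CA39 and 7.80 after CA77. It was higher by 3.41 with AR7 and 0.63 with CA77, while the second gave -0.03 and 0.51, so its probes disagree for AR7 and lie within the tolerance of each other for CA77.

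Of 44 further genes of mTOR control, 39 were measured on all arrays, of which 2 lay above and 5 below untreated after AR7, against 16.3% and 18.5% of all genes. After CA39 they numbered 11 and 10, against 26.3% and 30.3%, and after CA77 4 and 10, against 18.9% and 21.6%. The 2 of the 39 past 1.5-fold with CA39, against 10.8% of all genes, were Sesn3 and Ddit4, which are known as upstream brakes on mTORC1. Sesn3, a sestrin, was at 9.13 untreated, 8.85 after AR7, 12.12 after CA39 and 8.85 after CA77, higher with CA39 by 2.99 and lower by 0.29 and 0.28 with AR7 and CA77. Ddit4, also known as REDD1, was at 14.82, 14.73, 16.12 and 14.72 on the same arrays, higher with CA39 alone, by 1.30. Each was read by a single probe. The median of this list was -0.04, -0.01 and 0.02, near that of all genes.

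The compounds were then set against each other at the shared dose and time, in 3 pairs. AR7 and CA77 were nearest over the 44 members: the SD of their differences was 0.17, with 34 members (77.3%) within the tolerance, against an SD of 0.22 and 67.4% over all genes. CA39 differed from AR7 with an SD of 0.30 (20 members, or 45.5%, within the tolerance, against 41.6% of all genes) and from CA77 with an SD of 0.27 (24 members, or 54.5%, against 42.9%). Over all genes these SDs were 0.56 and 0.53. The widest member differences were Uvrag, higher with CA39 than with CA77 by 1.06 and than with AR7 by 0.87, and Ulk2, higher with CA39 than with AR7 by 0.70, with 0.52 from its second probe. Both passed 1.5-fold between CA39 and AR7, Ulk2 by its brighter probe alone. The share of all genes past 1.5-fold was not computed for this pair, so no reading is drawn from it. Between AR7 and CA77 the widest were Stx17 (0.56 higher with AR7), whose other probes gave -0.06 and 0.06, and Ulk2 (0.51 lower with AR7), whose second probe was lower by 0.36. Without replicate cultures, no interval for a difference between compounds can be given beyond the tolerance.

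Promoter sequences of RefSeq (assembly GRCm38.p6) were searched for the letters of the CLEAR element, the site of TFEB and TFE3 in autophagy and lysosome genes, since TFEB is the link from mTORC1 to these genes. The tables matched 39 of 46 members with 44 promoters of 300 bases each. GTCACGTG on either strand was found in 3 of the 44 (6.82%), those of Atg3, Atg7 and Atg14, against 2.25% of all 32851 promoters. Its inner part CACGTG, which every such match also holds, was in 5 (11.4%), with Atg5 and Fnip1 added, against 7.15%. Of the 3 genes with the longer motif, Atg14 was higher and Atg3 lower with CA39, and Atg7 stayed within the tolerance. The promoters of those 3 are shown, with that motif in capitals, beside those of Uvrag and Optn, the members farthest above untreated with CA39, which lack it. Each runs from 250 bases before an annotated start to 20 after it, 5′ to 3′ on the strand of the gene. Some members had several promoters in the reference, so a start shown need not be the main one of its gene.
Uvrag, chr7:99141125-99141394, minus strand: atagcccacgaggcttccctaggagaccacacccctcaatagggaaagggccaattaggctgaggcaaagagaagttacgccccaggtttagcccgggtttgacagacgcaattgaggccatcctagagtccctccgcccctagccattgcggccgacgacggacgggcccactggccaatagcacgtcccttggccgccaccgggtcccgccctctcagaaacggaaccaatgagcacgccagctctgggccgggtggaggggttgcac
Optn, chr2:5064098-5064367, minus strand: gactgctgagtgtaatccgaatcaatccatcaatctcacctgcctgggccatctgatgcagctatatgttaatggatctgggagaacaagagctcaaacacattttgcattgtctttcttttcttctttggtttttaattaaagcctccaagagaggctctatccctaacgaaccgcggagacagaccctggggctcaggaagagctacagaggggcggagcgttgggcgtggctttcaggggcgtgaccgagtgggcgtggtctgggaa
Atg3, chr16:45158579-45158848, plus strand: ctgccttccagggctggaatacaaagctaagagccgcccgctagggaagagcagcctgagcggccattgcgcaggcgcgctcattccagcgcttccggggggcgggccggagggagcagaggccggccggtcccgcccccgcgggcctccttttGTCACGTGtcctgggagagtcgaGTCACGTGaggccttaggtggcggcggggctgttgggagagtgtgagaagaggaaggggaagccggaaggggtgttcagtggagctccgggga
Atg7, chr6:114670846-114671115, plus strand: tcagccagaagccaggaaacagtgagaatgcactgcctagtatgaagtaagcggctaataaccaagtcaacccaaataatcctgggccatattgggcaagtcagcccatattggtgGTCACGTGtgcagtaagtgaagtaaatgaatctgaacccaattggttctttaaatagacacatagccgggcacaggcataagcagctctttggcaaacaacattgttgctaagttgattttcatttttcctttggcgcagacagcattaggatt
Atg14, chr14:47568415-47568684, minus strand: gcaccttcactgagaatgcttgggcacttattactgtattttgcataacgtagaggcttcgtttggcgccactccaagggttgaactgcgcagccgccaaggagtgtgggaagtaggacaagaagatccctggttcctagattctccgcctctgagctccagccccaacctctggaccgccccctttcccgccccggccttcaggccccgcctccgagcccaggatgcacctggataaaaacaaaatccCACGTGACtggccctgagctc

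All arrays lay on 1 slide, with a median net signal of 138 to 167.5 scanner units and 52.2% to 69.7% of probes well above background, the highest share being that of the untreated array. The untreated array lay in another row of the slide than the treated ones, and the effect of that row cannot be told apart from that of treatment, and CA77 alone was read in a second scan. Of 8 fibroblast markers, 7 were well above background on all arrays, the exception being Pdgfrb, seen on CA39 alone. Of the 14 markers of epithelium, leukocytes, endothelium and muscle, 8 were well above background on all arrays and Cdh1 on none, so that these genes do not mark the line as fibroblast alone. The leukocyte gene Itgam and the endothelial gene Kdr were among the 8. Col1a1 was at 15.60 untreated, 14.55 after AR7, 16.65 after CA39 and 14.77 after CA77. On CA39, Krt8 was at 10.04, against 7.30 to 7.67 on the others, and Epcam was well above background there alone. The part of these markers in the CA39 differences of Uvrag, Gabarap, Optn and Vamp8 was not tested. A share of cells and a level per cell cannot be told apart in RNA of whole cultures.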

How the data were processed

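Cy3-labelled RNA of 4 cultures was hybridised to one-colour Agilent mouse arrays, although the series title names RNA-Seq. The deposited scanner files hold spot intensity in scanner units, made by the authors with Feature Extraction 10.7.3.1, and the deposited series table holds the background-subtracted intensity of the same spots, not scaled and not on a log scale. The submitters' processing notes name oligo and RMA, but the deposited series table equals the background-subtracted signal of all 62976 spots of each array.

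Median spot intensity was corrected with the local background median by normexp without an offset, quantile-normalized between arrays and taken to log2 (limma 3.58.1 in R 4.3.3). Control spots and outlier spots were left out and repeated spots of a probe averaged. For each gene the probe brightest on average was taken, whether or not it was well above background. The 13019 genes measured on all arrays are those for which this probe was well above background on each. Accessions were matched to RefSeq symbols, which gave 27512 of 55681 probes a symbol. The tolerance, 0.16, is the root of 2 times the median SD of 0.113 over spots of 399 probes printed 10 times. The normalization was tested on simulated copies of the untreated array with known changes, as many up as down, in some bright spots. Differences between arrays in background, in detection or in a large share of genes were not simulated. The members, arms and further lists were chosen with earlier results of these data known.

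All members could be named. Values on each array were given for those past 1.5-fold with any compound, past the tolerance in 1 direction with all, or in opposite directions between compounds, and further genes were named past 1.5-fold. Other members, and the further genes of the closing section, were described after their values were seen. Values were recomputed in 8 other ways, by choice of background correction, scaling, probe choice, floor and filter, and array position, and in 1 more way added after the data were seen. With 1 array per group no array could be left out.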

Additional observations from a re-analysis of the deposited data

How the results depend on the processing

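Of 102 counts of members recomputed under another processing, 89 were within 1.5 times the reported count. Some of these could not change, since the floor at the 1st percentile enters only the counts past 2-fold. The members above untreated with AR7 numbered 4, against 8 reported, with the deposited series table. They also numbered 4 with probes in grid rows over 160 only, where 37 members were measured, against 44 in the reported count. Those past 1.5-fold with AR7 numbered 0, against 1, with the mean of probes and with those grid rows, where Stx17 was at -0.0077, read by another probe. Calcoco2, which is not a member, was at -0.0276 in those rows, also by another probe. With CA39, 8 members lay below untreated with the 75th percentile scaling, against 5. Past 1.5-fold with CA39 there were 0 with that scaling, 0 with the series table and 3 without floor and filter, against 1. Past 2-fold with CA39 there were 0 in the grid rows over 160, which leave out the Optn probe. Past 1.5-fold with CA77 there was 1 with the 75th percentile scaling and 1 with the series table, against 0. After subtraction of the neighbouring spots, chosen after seeing the data, 4 members lay below untreated with AR7, against 7, and 15 above with CA77, against 7. Causes other than the probes left out were not tested. Of 27 medians over members, arms and further lists, 9 turned their sign in at least 1 alternative: those over members (AR7), nucleation (AR7 and CA77), fusion (CA77), mTOR control (AR7 and CA39), conjugation and cargo receptors (both CA39) and the further mTOR genes (CA77). The CA39 median ran from 0.01 to 0.12 over members and from 0.04 to 0.24 for initiation, and the AR7 median of cargo receptors from 0.10 to 0.27.

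No paired analysis was possible because each group had 1 array. The spread between cultures is unknown, Optn has only bounds against AR7 and CA77 and Atg4a no difference, their signals not being well above background there, the Optn difference from untreated rests on a dim untreated signal, and slide row cannot be told apart from treatment.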

Other observations

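Among the further autophagy genes not yet named, Ccpg1, a receptor for the endoplasmic reticulum, was higher on all treated arrays, the differences being 0.32, 0.44 and 0.36 for AR7, CA39 and CA77. Wdr45, a lipid-binding relative of Wipi1, was likewise higher by 0.25, 0.37 and 0.21. Bnip3, a mitochondrial receptor, was higher by 0.58 with CA39 and 0.42 with CA77, with 0.46 and 0.38 from its second probe and -0.02 and -0.03 from its dimmest. Of the transcription factors that drive these genes, Mitf was higher by 0.48 with CA39, with 0.56 from its second probe, while its 0.25 with CA77 met 0.03 from that probe. Tfe3 was higher by 0.17 with AR7 and 0.31 with CA39, with 0.32 and 0.25 from its second probe, and Tfeb, read by 1 probe, was higher by 0.21 with CA39. These genes were picked after their values were seen.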
